A study of Mus musculus with 27 samples.

Results

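The contractile genes of smooth muscle and myofibroblasts, Acta2, Tagln, Cnn1, Myl9, Tpm1, Tpm2, Myh11, Actg2, Des and Lmod1, were followed through osteoblast differentiation of mouse calvarial cells. The 10 genes were taken by name, with earlier results of these data known, from the 37991 genes quantified in each of the 27 profiles. All 10 passed the filter on low counts. The cells came from the skull vault of neonatal C57BL/6J-Col3.6 CFP mice aged 5 to 9 days, in which a Col3.6 fragment of the type I collagen promoter drives cyan fluorescent protein. Cells were grown for 4 days, sorted for the fluorescent protein and returned to culture with ascorbic acid and beta-glycerol phosphate in serum, so every group shared the strain, the transgene, the sort and the medium. The groups were 9 days of differentiation, every 2 days between day 2 and day 18, with no undifferentiated or untreated group. The 3 profiles of a time point carried 1 index sequence and differed by sequencing lane, so they were counted as 1 library, although the study calls them triplicate samples. How many cultures went into a library was not given in the sources used here, and no second library of a time point was analysed.

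Smooth muscle cells and myofibroblasts shorten by sliding filaments of non-sarcomeric myosin along actin filaments, a movement switched on by phosphorylation of the regulatory light chain of myosin. Tropomyosins, calponin, transgelin and leiomodin bind the actin filament and set its length, stability or access to myosin. Many of these genes are known targets of serum response factor, which binds CArG boxes together with cofactors of the myocardin family, and fibroblasts placed on stiff plastic in serum are known to take up part of this programme.

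Summed over its lanes, a day held 22470195 to 62009157 counts, with a median of 43146793. The labelled cell type was osteoblast, and the osteoblast list summed to 2019 TPM on day 2 and 5489 TPM on day 18, with 7 of its 10 genes higher on a line in day. TPM is RSEM's length-corrected transcript abundance after upper-quartile scaling. On the same line, 28.3% of all 15659 genes tested were higher and 26.1% lower. Markers of other cells also moved, with 6 of 7 monocyte and macrophage genes higher (24.1 to 2014 TPM in sum), 5 of 5 adipocyte genes higher (at least 3.21 and at most 407 TPM), and 6 of 6 proliferating cell genes lower (349 TPM at most, on day 6, and 75.1 TPM at least, on day 18). In bulk RNA, fewer cells of a type and less RNA per cell cannot be told apart, and the part of these shifts in the values that follow was not tested.

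The regions just upstream of Acta2 and Myl9 are shown because they were the only ones, of the 7 members searched, with a match to the CArG box, the site of serum response factor. The box was searched as CCNNNNNNGG with only A or T in the 6 core letters, or with 1 core letter free, a relaxation chosen after the data were seen. The motif reads the same class of letters on both strands, so 1 search covers both. Capitals mark the matches in these 250 bases of NCBIM37 before the annotated start of the gene, written on the strand of the gene. The Acta2 window is chr19:34329827-34330076 on the minus strand, and the Myl9 window is chr2:156600906-156601155 on the plus strand.
Acta2: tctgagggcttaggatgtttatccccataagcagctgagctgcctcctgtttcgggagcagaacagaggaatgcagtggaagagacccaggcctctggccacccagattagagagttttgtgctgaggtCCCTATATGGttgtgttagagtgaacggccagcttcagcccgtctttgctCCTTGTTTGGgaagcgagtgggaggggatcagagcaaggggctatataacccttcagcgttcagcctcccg
Myl9: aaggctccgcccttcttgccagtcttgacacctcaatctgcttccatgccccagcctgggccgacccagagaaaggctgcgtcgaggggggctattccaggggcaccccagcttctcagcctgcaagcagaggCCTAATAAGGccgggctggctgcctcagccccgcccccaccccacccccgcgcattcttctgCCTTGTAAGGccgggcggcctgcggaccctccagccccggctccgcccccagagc
With position -1 as the last base before the start, the boxes of Acta2 began at -121 and -71, and those of Myl9 at -117 and -55. The strict form was in 1 of the 7 members, Myl9, and in 1.33% of all 22378 windows, and the relaxed form in 2 of the 7 and in 8.42% of all windows. The windows of Cnn1, Des, Lmod1, Tpm1 and Tpm2 held no match, and those of Tagln, Myh11 and Actg2 were not searched.

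Taken as a sum, contractile transcripts were abundant at the start and fell steeply between day 2 and day 10. Acta2 and Tpm1 were the largest parts of the sum on day 2, when Lmod1, Myh11 and Des were at 18.2, 17 and 3.18 TPM. The 10 genes together had 13487 TPM on day 2, 4899 TPM on day 10 and 4142 TPM on day 18, and their share of all deposited TPM went from 1.41% to 0.392%. With mitochondrial ribosomal RNA, which took 28.7% to 35.3% of TPM, left out, the share went from 1.97% to 0.6%. By level on day 2, Acta2 ranked 9th and Tpm1 10th of all genes. By day 18 Acta2 had moved to rank 97, while Tpm1 held rank 30.

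**Figure D1:**
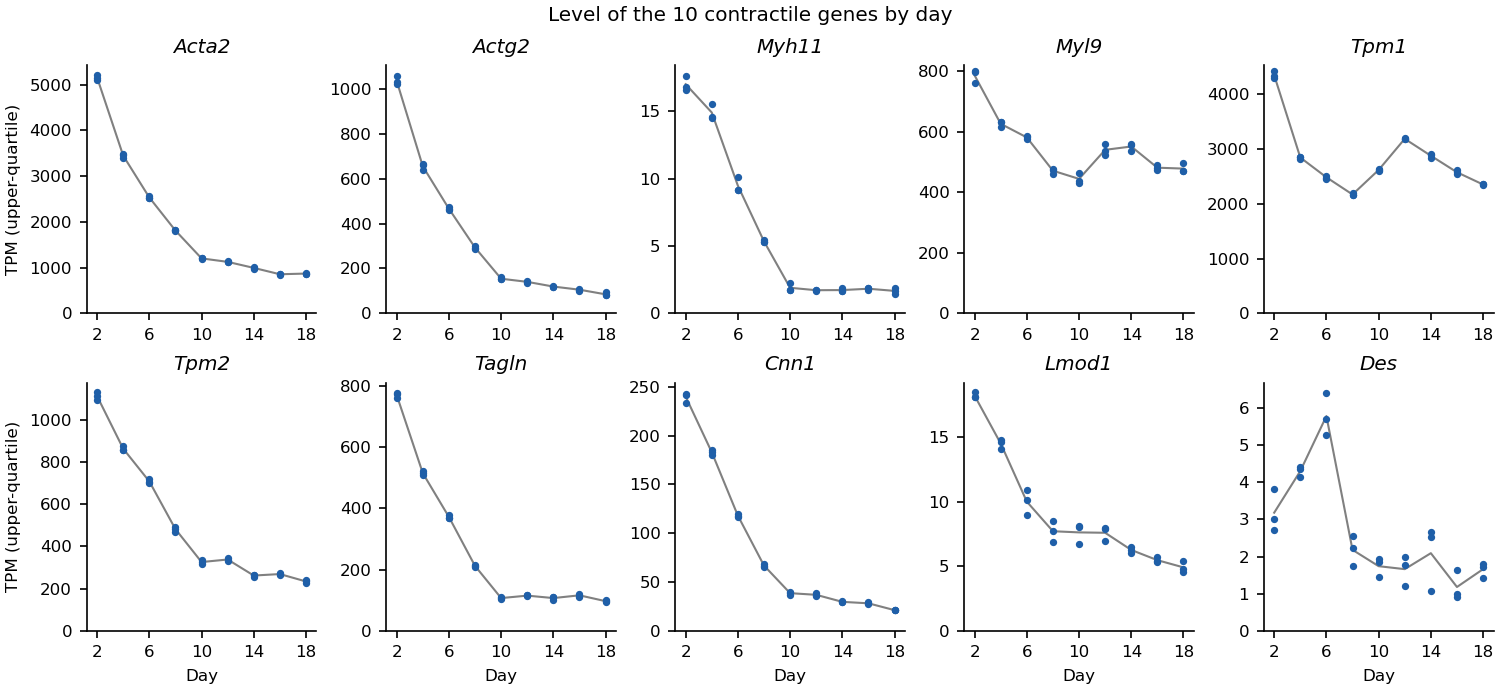
Level of each contractile gene (vertical axis, upper-quartile TPM from 0) against day of differentiation (horizontal axis). Points are the 3 lanes of 1 library and the line joins their means, so their scatter covers sequencing and quantification only. Acta2 is at 5155 TPM at the start and 868 TPM at the end, whereas Tpm1 has its lowest value, 2170 TPM, on day 8, and rises to 3187 TPM on day 12.

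The actins form the thin filament. Acta2, the alpha smooth muscle actin used to mark myofibroblasts (ENSMUSG00000035783, NCBIM37 chromosome 19, 34315580 to 34329826, minus strand), was at 5155 ± 51 (SD over 3 lanes), 3446, 2532, 1809, 1200, 1124, 992, 853 and 868 ± 12.4 TPM on days 2 to 18 in order. The level fell at 7 of the 8 steps between neighbouring days, and most of the loss lay before day 10. The fitted straight line gave a log2 change of -2.72 from day 2 to day 18 (SE 0.25, edgeR quasi-likelihood test, adjusted p = 3.53e-05). Actg2, the gamma actin of enteric smooth muscle (ENSMUSG00000059430, chromosome 6, 83462899 to 83486259, minus strand), was at 1036 ± 18.7, 655, 466, 293, 154, 140, 119, 105 and 84.4 ± 7.95 TPM. It fell at all 8 steps, with a fitted log2 change of -3.75 (SE 0.27, edgeR adjusted p = 1.18e-05).

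The myosin chains differed from each other. Myh11, the smooth muscle myosin heavy chain and the most specific marker of mature smooth muscle among the 10 (ENSMUSG00000018830, chromosome 16, 14194620 to 14291501, minus strand), was low even on day 2. Its levels were 17 ± 0.533, 14.9, 9.47, 5.34, 1.89, 1.71, 1.72, 1.82 and 1.66 ± 0.215 TPM, resting on 3127 summed counts on day 2 and 281 on day 18. From day 10 it stayed between 1.66 and 1.89 TPM. The fitted log2 change was -3.93 (SE 0.47, edgeR adjusted p = 0.000114). Myl9, the regulatory light chain whose phosphorylation starts contraction (ENSMUSG00000067818, chromosome 2, 156601156 to 156607394, plus strand), was at 786 ± 22.4, 626, 581, 471, 444, 540, 551, 481 and 478 ± 15.8 TPM. The values lie close together from day 8 on, and the fitted log2 change was -0.66 (SE 0.17, edgeR adjusted p = 0.00724). Without the day 2 library this change was -0.38 (edgeR adjusted p = 0.0532), so its call rested on that library.

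Tropomyosins lie along the actin filament and gate the binding of myosin. Tpm1 (ENSMUSG00000032366, chromosome 9, 66870397 to 66897213, minus strand) was at 4349 ± 64, 2845, 2484, 2170, 2618, 3187, 2878, 2576 and 2352 ± 15 TPM. Its values were lowest on day 8, higher on days 10 and 12 and lower again to day 18, each from a single library. The straight line did not pass the threshold, with a log2 change of -0.62 (SE 0.25, edgeR adjusted p = 0.0535), whereas a natural spline in day, which allows a dip, did (edgeR adjusted p = 5.09e-05). The line passed without day 6 or day 8 (adjusted p = 0.0311 and 0.0312) and gave -0.17 without day 2 (adjusted p = 0.523). Tpm2, the beta tropomyosin (ENSMUSG00000028464, chromosome 4, 43527583 to 43536637, minus strand), showed no such return, at 1112 ± 18.3, 863, 708, 482, 326, 338, 262, 269 and 234 ± 7.93 TPM. Its fitted log2 change was -2.39 (SE 0.20, edgeR adjusted p = 2.03e-05).

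The length that RSEM used for Tpm1, an average over its 21 transcripts weighted by their estimated share, is a readout of its transcript mixture. It was highest on day 4 at 1442 bases and lowest on day 18 at 1358 bases, with a median SD over lanes of 3.94 bases. That of Tpm2, with 7 transcripts, stayed between 1202 and 1222 bases. Lane scatter covers sequencing and quantification only, so whether the mixture differed between days was not tested.

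Transcripts of the proteins bound to the thin filament were all lower on the line. Their values took different courses after day 10, each day from a single library, and that difference was not tested. Tagln, transgelin or SM22, an actin-bundling protein (ENSMUSG00000032085, chromosome 9, 45737711 to 45744141, minus strand), was at 770 ± 8.79, 515, 372, 212, 107, 115, 107, 116 and 96.9 ± 2.34 TPM, a fall to day 10 and a plateau after it (log2 change -3.12, SE 0.38, edgeR adjusted p = 0.000121). Cnn1, the calponin that restrains myosin ATPase (ENSMUSG00000001349, chromosome 9, 21903725 to 21914074, plus strand), was at 240, 183, 118, 66.9, 38.6, 36.9, 29.7, 28.2 and 21.2 TPM. Cnn1 went on falling to the end (log2 change -3.68, SE 0.28, edgeR adjusted p = 1.36e-05). Lmod1, a leiomodin that nucleates actin filaments in smooth muscle (ENSMUSG00000048096, chromosome 1, 137221384 to 137264642, plus strand), was low, at 18.2 ± 0.223, 14.5, 10, 7.71, 7.62, 7.59, 6.26, 5.47 and 4.91 ± 0.423 TPM. It held a shelf from day 8 to day 12 before falling on (log2 change -1.88, SE 0.19, edgeR adjusted p = 4.75e-05).

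Desmin, the intermediate filament of muscle cells (Des, ENSMUSG00000026208, chromosome 1, 75356904 to 75365154, plus strand), was near the lower limit of useful depth. Its levels were 3.18 ± 0.568, 4.3, 5.78, 2.18, 1.74, 1.66, 2.09, 1.18 and 1.66 ± 0.196 TPM, on 71 to 321 summed counts per day. The peak in TPM lay on day 6, when RSEM's averaged length for the gene was 2187 bases ± 102 (SD over lanes), against 3028 bases on day 2. In CPM, counts scaled to the library with upper-quartile factors and not to length, days 4 and 6 stood at 124% and 118% of day 2. The 95% Wilson intervals for counting error were taken on CPM without those factors. They were 5.31 to 6.79 on day 2, 6.78 to 8.44 on day 4 and 6.67 to 8.3 on day 6. The intervals of days 4 and 6 overlapped each other, and overlapped that of day 2 only at its upper edge. The fitted log2 change of Des was -1.96 (SE 0.40, edgeR adjusted p = 0.00194).

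Set in order of TPM on day 2, the members ran Acta2, Tpm1, Tpm2, Actg2, Myl9, Tagln, Cnn1, Lmod1, Myh11 and Des. On that day Myl9 and Tagln, at 786 ± 22.4 and 770 ± 8.79 TPM, did not differ beyond the scatter of lanes. On day 18 the order was Tpm1, Acta2, Myl9, Tpm2, Tagln, Actg2, Cnn1 and Lmod1, with Myh11 and Des last and level at 1.66 TPM, and Tagln and Actg2 stood close at 94.8 to 99.4 and 79.3 to 93.6 TPM over lanes. The highest of the 10 on day 2 had therefore been passed by Tpm1, and Actg2 had dropped below Myl9 and Tagln.

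Across the test of a line in day, 9 of the 10 genes were lower and 0 were higher, against 26.1% lower and 28.3% higher among all 15659 genes tested. Their median log2 change was -2.55, and that of all genes tested was 0.0514. The spline called 10 of the 10, against 57.5% of 16256 genes. Since each time point is 1 library, these p-values measure scatter of the days around a line or curve, not the spread between cultures.

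**Figure D2:**
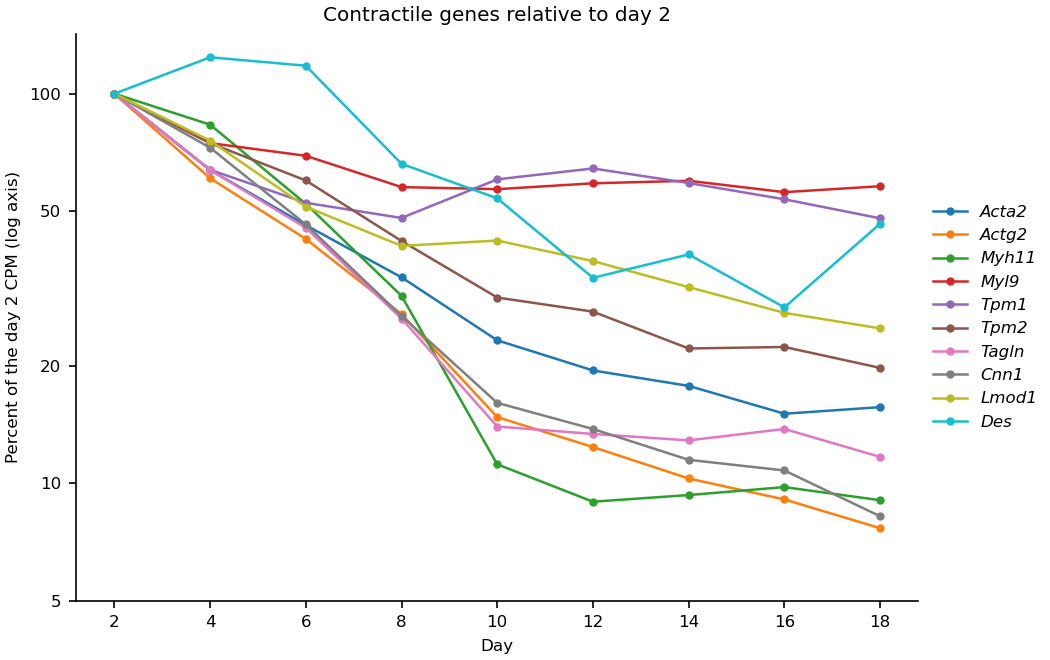
CPM of each gene as a percentage of its day 2 value (vertical axis, log scale) against day. By day 10, Myh11, Tagln, Actg2, Cnn1 and Acta2 lie at 11.2% to 23.3%, Tpm2 at 30%, Lmod1 at 42%, and Des, Myl9 and Tpm1 at 53.9% to 60.3%.

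The fall was placed in time by setting days 8 to 12 against days 2 to 6, and days 14 to 18 against days 8 to 12, with 3 libraries in each phase. From the early to the middle phase, 9 of the 10 genes fell, against 13.6% of all genes tested. Log2 changes of the 9 ran from -2.23 for Myh11 (SE 0.43, edgeR adjusted p = 0.00713) to -0.49 for Myl9 (SE 0.13, edgeR adjusted p = 0.0214), and Tpm1 was at -0.33 (SE 0.23, edgeR adjusted p = 0.292). From the middle to the late phase edgeR called 0 of the 10, and 0% of all genes, with either upper-quartile or TMM scaling. At an unadjusted p under 0.05, in either direction, there were 5 of the 10 and 2557 of all genes, or 16.3%. Both contrasts use the middle libraries.

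**Figure D3:**
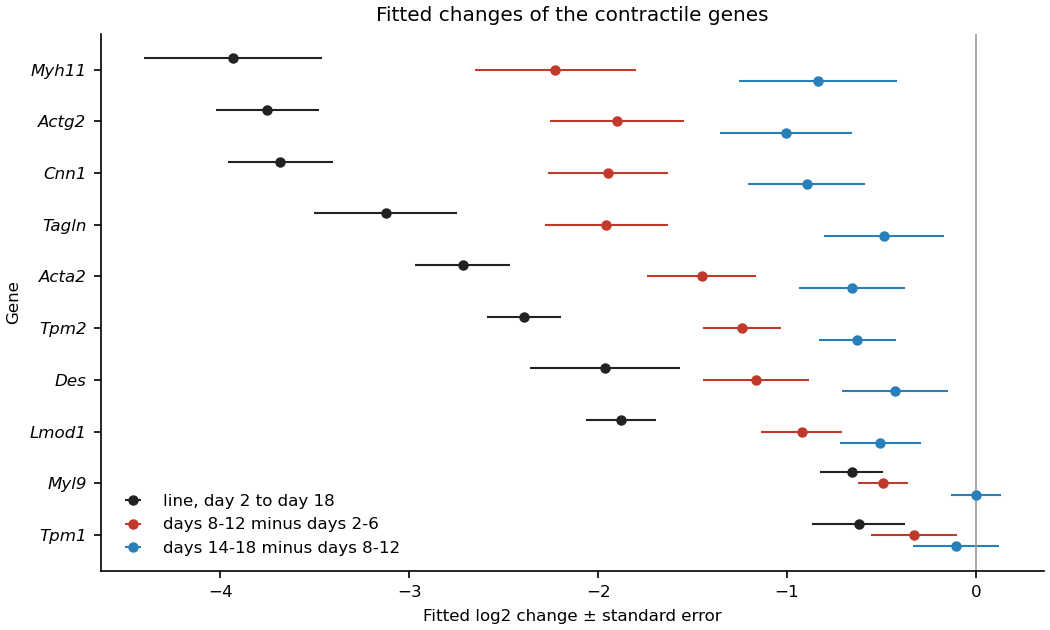
Fitted log2 change (horizontal axis, with bars for the standard error) of each gene (vertical axis) on the straight line from day 2 to day 18, from the early to the middle phase, and from the middle to the late phase. Myh11 has the lowest values on the line and in the first contrast, at -3.93 and -2.23, and Myl9 is at 0.00117 in the second.

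The middle phase straddles the bend at day 10, so a line over the 5 libraries of days 10 to 18 was added after the data were seen. It called 6 of the 10 genes lower, against 3.61% of all genes tested. Actg2 and Cnn1 changed by -0.94 (SE 0.11, edgeR adjusted p = 0.000158) and -0.91 (SE 0.13, edgeR adjusted p = 0.000637), and Lmod1, Acta2 and Tpm2 by -0.77, -0.60 and -0.60. Tpm1 changed by -0.37 (SE 0.10, edgeR adjusted p = 0.0404) after its higher values on days 10 and 12, and ended near its day 8 level, at 47.9% against 48% of the day 2 CPM. Tagln and Myh11, both at -0.18 (edgeR adjusted p = 0.407 and 0.717), Des at -0.23 (adjusted p = 0.823) and Myl9 at -0.01 (adjusted p = 0.971) did not pass. Whether the slopes of the 2 sets differed was not tested.

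Each of 7 gene families pairs contractile members with relatives, most of them cytoskeletal genes outside muscle. The share of a family held by the listed genes shows whether they moved with these relatives. The actin relatives also included the skeletal Acta1 and the cardiac Actc1, at no more than 13.8 and 3.63 TPM on any day. In the actins, Acta2 and Actg2 held 41.3% of family TPM on day 2 and 21.9% on day 18, with Actb, the cytoplasmic beta actin, itself going from 7145 to 2684 TPM. Cnn1 went from 38.4% to 6.45% of the calponins, while Cnn3 went from 133 to 186 TPM. Tagln went from 34.9% to 13.4% of the transgelins. Myh11 was a minor chain throughout, with 5.22% of the class II heavy chains on day 2 and 1.08% on day 18, the rest being Myh9 and Myh10, the chains of non-muscle myosin.

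The other families did not show a lower share of that size. Myl9 kept 40.2% to 49.1% of the regulatory light chains, although Myl12b, a non-muscle light chain, went from 39.4 to 296 TPM. Within the tropomyosins Tpm1 went from 57.4% on day 2 to 73.1% on day 12 and 70.3% on day 18, as Tpm2 went from 14.7% to 6.98% and Tpm4 from 23% to 17%. Desmin was at most 0.154% of desmin and vimentin together. These shares are descriptions from single libraries and were given no test.

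**Figure D4:**
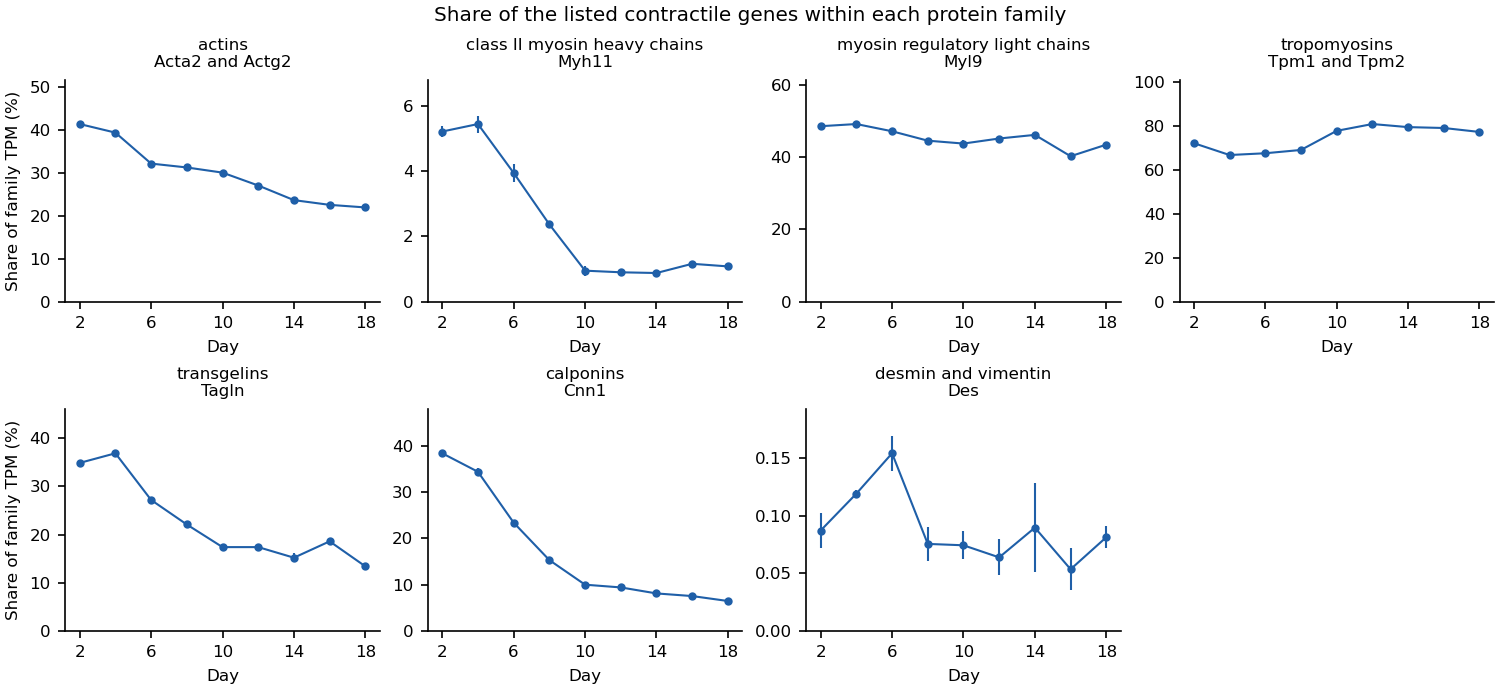
Share of family TPM (vertical axis, percent, from 0) held by the contractile genes named above each panel, by day. Points are means and bars the SD over 3 lanes of 1 library. The actin, calponin, transgelin and myosin heavy chain shares are lower on day 18 than on day 2, and the tropomyosin share lies between 66.7% and 80.8%.

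The members varied together over the 9 days to different degrees. Pearson's r of log2 CPM, a description over 9 points that share libraries and depth, ran from 0.307 for Tpm1 with Des to 0.998, with a median of 0.911 over the 45 pairs. Among the 7 genes other than Tpm1, Myl9 and Des it was 0.914 to 0.998 in all 21 pairs. Spearman's rank correlation ran from 0.1 to 1. Among 7619 genes with a mean of at least 10 TPM, the most alike to Acta2 were Myc, a growth-promoting transcription factor, and Wdr1, a cofactor of actin disassembly, at an r of 0.9977 and 0.9976. For Tagln they were Ifrd1 and Eif3b, a subunit of a translation initiation factor, at 0.9992 and 0.9973.

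Other genes of the contractile apparatus and its adhesions moved less evenly. Of 25 tested, 17 were lower on the line, 4 were higher and 4 did not pass, with a median log2 change of -1.05. Of all 15659 genes tested, 26.1% were lower and 28.3% higher. Kcnmb1, the beta subunit of the smooth muscle potassium channel, was the lowest at -5.45 (SE 0.95, edgeR adjusted p = 0.000839), though on 257 counts in all. The 4 that rose were Smtn, a smoothelin, at 0.47, Itga8, an integrin chain, at 1.95, Mylk, the kinase that phosphorylates the regulatory light chain, at 3.23, and Synm, the intermediate filament protein synemin, at 5.88. Mylk was at 10.8 TPM on day 2, 68.9 TPM on day 12 and 59.2 TPM on day 18 (SE 0.60, edgeR adjusted p = 0.00121), opposite in direction to its substrate chain Myl9.

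The regulators of the programme were read on the same line. Of 10 tested, 5 were lower, 2 were higher and 3 did not pass, with a median of -0.40, against 26.1% lower and 28.3% higher of all genes tested. Srf, serum response factor, fell (22.2 TPM on day 2, 9.73 TPM on day 18, log2 change -1.19, SE 0.22, edgeR adjusted p = 0.00112), and Mkl1, a cofactor of the myocardin family, fell by 0.75 on the log2 scale. Mef2c and Gata6 rose, by 3.48 and 1.62. Gata6 rested on 333 counts in all, at no more than 0.858 TPM, and the spline did not call it (edgeR adjusted p = 0.124). Myocd, the cofactor myocardin, did not reach the filter for the line, and its summed counts were 238, 30, 8, 2, 1, 4, 2, 0 and 8 on days 2 to 18. Most of its counts thus lay in the first library, and no test is given for a pattern that rests on 1 library.

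The cytoskeletal relatives outside muscle also fell, 10 of 14 lower and 2 higher with a median of -1.19, among them Tpm4 at -1.85, Myh9 at -1.78 and Actb at -1.56. Of 15 matrix and surface genes of myofibroblasts, 8 fell and 5 rose, against the 26.1% lower and 28.3% higher of all genes tested. Tnc, the matrix protein tenascin C, fell by 2.66 on the log2 scale, whereas Fap, a surface protease of activated fibroblasts, rose by 4.69 and Postn, periostin, by 4.23. Called matrix genes thus lay in both directions.

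**Figure D5:**
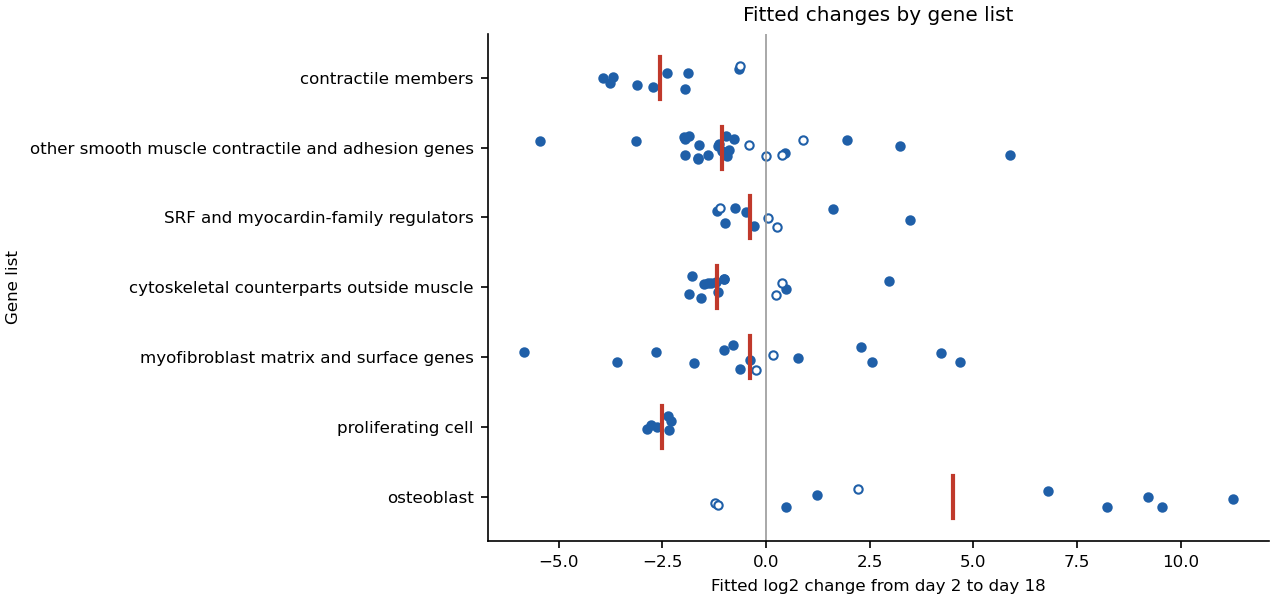
Fitted log2 change from day 2 to day 18 (horizontal axis) of each tested gene in 7 lists (vertical axis). Filled points have an adjusted p under 0.05, open points do not, and red bars are list medians, which are -2.55 for the contractile genes, -1.05 for the other smooth muscle genes and 4.51 for the osteoblast list.

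Markers of cells that share contractile genes were read beside these results. The line called 26.1% of all 15659 genes tested lower and 28.3% higher. Of the 6 mural cell markers tested, 3 were lower and 3 higher, and their summed level was highest on day 2 at 32.8 TPM and lowest on day 18 at 18.2 TPM, with Higd1b at 1 count in all. Mcam, Cspg4 and Rgs5 fell by 3.20, 2.16 and 0.81 on the log2 scale, and Kcnj8, Abcc9 and Notch3 rose by 5.92, 5.16 and 1.14. Of the 5 skeletal muscle markers tested, 1 was lower, 1 was higher and 3 did not pass. The skeletal actin Acta1 fell by 5.92 on the log2 scale (13.8 TPM on day 4, 0.388 TPM on day 18), and the perinatal myosin heavy chain Myh8 rose by 4.25 on 909 counts in all. Among those below the filter, Pax7, Myf5 and Ckm had 0 counts in all libraries, Myod1 had 5 and Myog 1. The skeletal list summed to 4.57 to 21.4 TPM and the cardiac list to 3.64 to 12.8 TPM on any day. Of the 2 cardiac markers tested, 1 was lower, Actc1, by 4.77 on the log2 scale on 136 counts in all. The other, Tnni3, did not pass, on 282 counts in all, with 0.204 TPM on day 2 and 12.5 TPM on day 18. Below the filter, Tnnt2 had 113 counts in all, and Myh6, Myh7, Nppa and Myl7 had 1 to 8. The 6 proliferation markers fell with a median log2 change of -2.5, close to the -2.55 of the contractile genes, and their part in that change was not tested.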

How the data were processed

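RNA sequencing profiles of mouse calvarial cells, 27 in all and 3 per time point, were used. RNA was taken in Trizol, the cDNA was amplified with NuGEN Ovation and libraries were made with TruSeq. The authors aligned reads to the NCBIM37 transcriptome with Bowtie 0.12.9 and quantified genes with RSEM, version 1.2.8 in the submitters' processing notes. Strand was not given in the sources used here. The authors deposited the estimated count of each gene from RSEM, not normalized. They also deposited TPM, in which each count is divided by a length averaged over transcripts before scaling, as the authors' files give it. FPKM, likewise deposited, served only as an alternative. Symbols and positions came from GENCODE for NCBIM37, promoter windows were read from that genome for members that the RefSeq promoter table also lists, and 37205 of 37991 identifiers had a symbol.

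TPM were scaled so that the 75th percentile of nonzero values was equal in all 27 profiles. Expected counts of the 3 lanes of a day were summed and rounded. A straight line in day, a natural spline with 3 degrees of freedom and 3 phases were fitted with edgeR 4.0.16 in R 4.3.3 (quasi-likelihood test, upper-quartile factors, a minimum count of 10 in filterByExpr, Benjamini-Hochberg adjusted p under 0.05 over all genes tested). The fits were tested on simulated counts. The common dispersion was 0.000232 between lanes, 0.0581 around the line and 0.0196 around the spline. Counts of the members were whole to within 0.005 in all profiles, except 1 of Myh11, which leaves no trace of reads divided with other genes. Alternatives were TMM factors, DESeq2 1.42.0, other filters, totals without mitochondrial ribosomal RNA, the 27 profiles as samples, and each lane or day left out. The 95% Wilson intervals cover counting error only, since amplified reads are not independent molecules. All members were named, with lists of other smooth muscle genes, regulators, cytoskeletal relatives, myofibroblast matrix genes and cell type markers, of which up to 4 rises and 4 falls with an adjusted p under 0.05 were named by size of change. Family relatives, markers and Myocd were named outside that rule, after their values were seen. The members and lists were chosen with earlier results of these data known. Some genes of these lists are not reported here.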

Additional observations from a re-analysis of the deposited data

How the results depend on the processing

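No fitted change turned its direction under the 20 alternatives of the line. Contractile genes called lower numbered 8 without day 2 and 9 or 10 otherwise, and genes called among all tested ran from 7187 to 10881, against 8510. Log2 changes on the lines ran from -3.10 to -2.39 for Acta2, -4.51 to -3.73 for Myh11 and -2.61 to -1.80 for Des. In the contrast of phases they were -2.12, -3.07 and -1.60. Tpm1 passed the threshold under TMM factors (-0.67, edgeR adjusted p = 0.0414), DESeq2 (-0.66, adjusted p = 0.0289) and with each lane left out (-0.64 to -0.63, edgeR adjusted p = 0.0477 to 0.0497). The spline called 9 of the 10 with 2 degrees of freedom. As deposited, TPM moved the mean level of a gene by a ratio of 1 to 1.03, and FPKM by 0.646 to 0.669.

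The replicate numbers mark lanes, and profiles with the same number did not deviate together (mean r 0.006, from -0.163 to 0.173). With the 27 profiles taken as samples, 10 contractile genes were called lower without and with the replicate block, Tpm1 was at -0.62 in both, and 10754 and 10881 genes were called. Those fits take lanes of 1 library as replicates, so their p-values are too small.

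With 1 library per day, day and library cannot be told apart. Depth limits Des and, after day 8, Myh11, for which lanes scattered by up to 42% and 15.4% of the mean.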
